A study of Mus musculus with 4 samples.

Results

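The comparison described here is that of resting macrophages carrying a non-seed swap in miR-146a (3′F, 1 small RNA library) with wild-type macrophages (WT A and WT B, 2 libraries). These are 3 of the 4 libraries of the series, and the remaining library, from miR-146a knock-out cells (KO), enters only the mean level that sets which miRNAs count as expressed, the choice of line for each miRNA, the scaling factors and values set side by side. The cells were bone marrow–derived macrophages (BMDMs), grown from marrow of mice of 6 to 7 months. M-CSF, the cytokine that drives macrophage growth, was given at 10 ng/ml over 8 to 9 days of culture at 85000 cells per cm2. They were harvested after 16 h in medium free of LPS, so that every group was unstimulated. WT cells carried the unaltered miR-146a gene. The 3′F cells came from mice homozygous for the altered allele, made in V6.5 ES cells, and the colonies were on a mixed background of 129 and C57BL6/J strains after 3 backcrosses. The labels give 3 mice for each genotype, but not whether these were pooled into a library, and WT A and WT B are separate cultures.

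The deposited table listed 1979 mature miRNAs, of which 251 had a mean of at least 10 reads per 1000000 counts (RPM) over the 4 libraries and are called expressed. Library totals were 17073442 (WT A), 11410940 (WT B), 16194595 (3′F) and 19087640 counts (KO), so that 3 counts, taken as the floor, correspond to 0.176, 0.263, 0.185 and 0.157 RPM. The miRNAs of interest are the 249 expressed ones other than miR-146a-5p and miR-146b-5p. For each, the shift is the log2(RPM + 1) value in 3′F minus the mean of that value in WT A and WT B, a scale that understates changes of low miRNAs. A miRNA, family or cluster is called outside WT when it stood above both WT libraries, or below both, by at least 0.32 on this scale, a moderate distance that is called the threshold here. With 1 library of 3′F, no difference from WT has a replicate check, no p-value is given, and effects of the allele and of this 1 culture cannot be told apart. In bulk RNA, fewer cells of a type and less RNA per cell cannot be told apart either. Intervals are Wilson intervals at 95%, computed from the counts of each library. They cover counting error only, since reads without molecular identifiers are not independent molecules.

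A miRNA is cut from a hairpin precursor, and 1 strand of the duplex, the guide, is loaded into Argonaute while the other, the passenger, is mostly lost. Bases 2 to 8 of the guide form the seed, which pairs with target mRNAs, and miRNAs with the same seed make up a family. Hairpins that lie close together are often transcribed as 1 primary transcript, so that a family can be spread over several clusters and a cluster can hold several families. miR-146a itself is induced by NF-kB and represses Irak1, a kinase, and Traf6, a ubiquitin ligase and adaptor, both of Toll-like receptor signalling.

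The 3′F allele keeps the seed and exchanges the bases of positions 13 to 20 with those of the opposite strand of the hairpin. Both strands are shown to place the exchange, with the exchanged bases in capitals. Relative to miR-146a-5p the 3′F strand carries 8 changes, counted from 1 at the 5′ end. Those at its start are U13A, C14A, C15G and A16U, and those at its end are U17G, G18U, G19C and G20C. The first sequence is the RefSeq entry and the second the designed mimic of the study, which ends at position 20.
miR-146a-5p: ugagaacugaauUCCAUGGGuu
3′F mimic: ugagaacugaauAAGUGUCC

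The families on which the results below turn are shown by their mature sequences, from RefSeq (GRCm38.p6), with the seed in capitals. The first 4 share the seed of the miR-17 family and come from 2 loci, the next 2 are the miR-7 family and the next 2 the miR-10 family. The last 3 have unrelated seeds and come from a single intron.
miR-17-5p: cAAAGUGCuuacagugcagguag
miR-20a-5p: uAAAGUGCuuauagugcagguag
miR-93-5p: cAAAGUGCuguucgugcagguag
miR-106b-5p: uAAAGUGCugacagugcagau
miR-7a-5p: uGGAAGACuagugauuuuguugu
miR-7b-5p: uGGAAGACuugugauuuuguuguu
miR-10a-5p: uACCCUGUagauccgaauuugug
miR-10b-5p: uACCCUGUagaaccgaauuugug
miR-99b-5p: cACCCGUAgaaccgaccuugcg
let-7e-5p: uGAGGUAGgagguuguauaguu
miR-125a-5p: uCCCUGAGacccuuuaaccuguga

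The labels were checked on the altered miRNA. miR-146a-5p had 106754 (WT A), 62590 (WT B) and 107.5 counts (3′F), while the line for the swapped strand had 171 counts in 3′F and 0 in both WT libraries. These counts check the labels and do not measure how abundant the swapped strand was. The paper cautions that ligation varies with sequence, and reports from qRT-PCR similar levels of the 3′F and WT strands in most of the tissues and cells it measured. miR-146b-5p, the other member of the family, was at 1558 (WT A), 1916 (WT B) and 1619 RPM (3′F), between the WT values. These products are left out of the distances between libraries and of the plots. The counts over 251 miRNAs and 26 families include miR-146a-5p and miR-146b-5p but not the swapped strand.

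Away from miR-146a, the 3′F library lay about as far from each WT library as these lay from each other. The root mean square of the log2 differences over the 249 miRNAs was 0.287 between 3′F and WT A, 0.307 between 3′F and WT B and 0.273 between WT A and WT B. The median absolute differences were 0.158, 0.182 and 0.173. Over the 251 expressed miRNAs the shift had a median of -0.08 and quartiles of -0.22 and 0.06, against a median of 0.07 and quartiles of -0.09 and 0.24 for WT B minus WT A. The 5 most abundant miRNAs of the 3′F library were miR-21a-5p, miR-27b-3p, let-7i-5p, let-7f-5p and let-7g-5p, with 62.4% of its counts, where they held 63.1% of WT A and 59.5% of WT B. miR-21a-5p alone held 37.9% of WT A, 34.1% of WT B and 35.4% of 3′F.

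Of the 251 miRNAs, 57 (22.7%) were above both WT libraries in 3′F by any amount, 111 (44.2%) were below both and 83 lay between them. At the threshold, 6 were above both (2.39%) and 21 below both (8.37%), miR-146a-5p among the latter. With KO left out of the mean that sets expression, 252 miRNAs were expressed, 5 of them called above and 21 below. Between the WT libraries 46 miRNAs (18.3%) were higher in WT B than in WT A by at least as much and 12 (4.78%) lower, a comparison with 1 library instead of 2 and so an easier threshold. At 1.5-fold the counts for 3′F were 1 above and 5 below, and at 2-fold 0 above and 2 below, miR-146a-5p and miR-451a. Between the WT libraries 7 miRNAs were higher in WT B and 2 lower at 1.5-fold, and 0 at 2-fold.

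The lean of these counts to lower values depended on how libraries were scaled. With edgeR's TMM factors or DESeq2's size factors, 10 miRNAs were above and 16 below both WT libraries at the threshold, or 38.5% and 61.5% of calls against 22.2% and 77.8% on deposited RPM. By any amount, 79 were then above both and 77 (TMM) or 78 (DESeq2) below both, and the median shift was -0.0019 and -0.0089. Both methods centre the differences between libraries, so such a balance follows from the scaling. It cannot decide whether the lean is real. With TMM factors, and also with DESeq2's size factors, 22 of the 27 calls were kept. The 5 lost were miR-7a-5p, miR-7b-5p, miR-29b-3p, miR-32-5p and miR-93-5p, and the 4 gained were miR-125a-3p, miR-183-5p, miR-1843a-5p and miR-1981-3p.

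**Figure D1:**
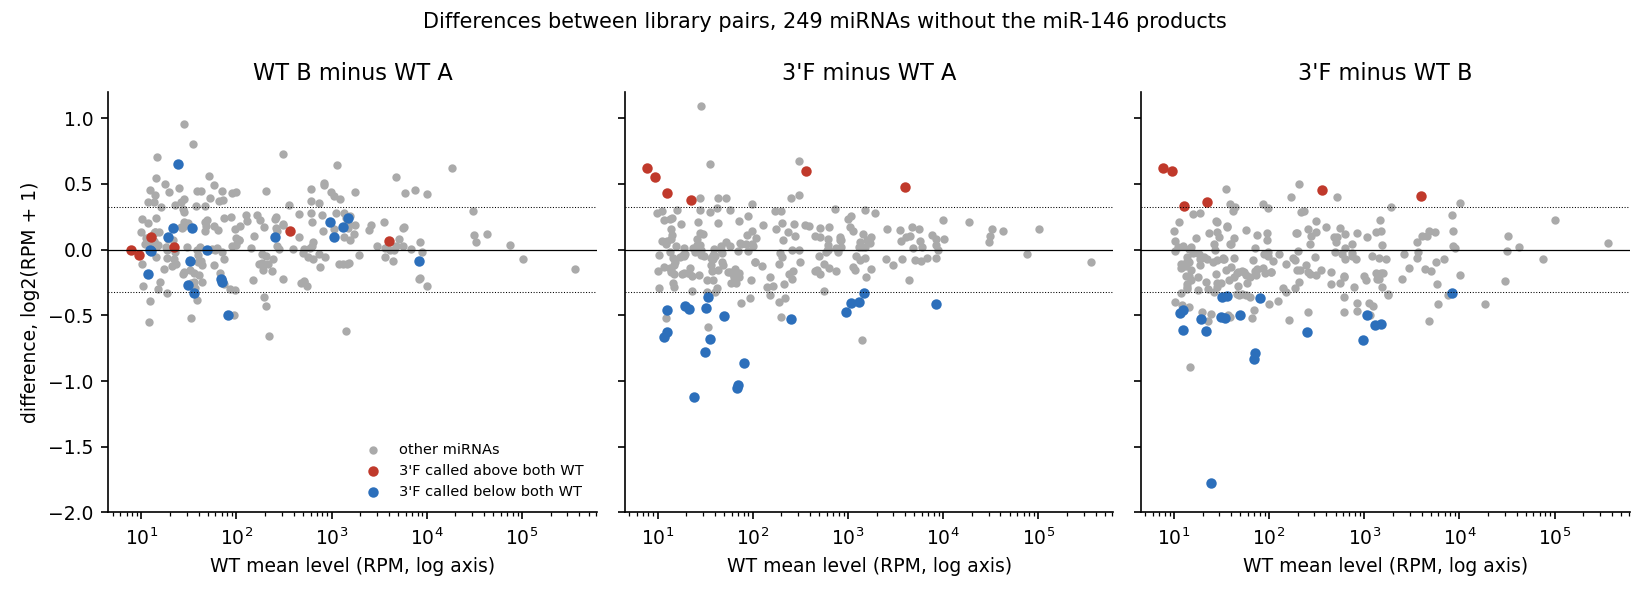
Differences of log2(RPM + 1) between each pair of libraries (vertical axis) plotted by the mean WT level in RPM (horizontal log axis) for 249 miRNAs without miR-146a-5p and miR-146b-5p. Red and blue points are miRNAs called above (6) or below (20) both WT libraries in 3′F, and dotted lines mark the threshold of 0.32. The clouds have a similar width in all panels, and the lowest point in the panels with 3′F is miR-451a.

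Of the 27 called, 15 were at 50 RPM or less in WT, as were 96 of the 251 expressed miRNAs, and 6 were among the 60 miRNAs at 1000 RPM or more in WT. For 26 of them the interval in 3′F was apart from those of both WT libraries, the exception being miR-10a-3p. At this depth the same held for abundant miRNAs that were not called. Examples are let-7f-5p and let-7i-5p, at log2 distances of only 0.02 and -0.03 from the nearer WT library. Intervals that lie apart therefore add no support to the calls. Only 12 of the 27 had whole counts in every library. The others had fractional counts, because reads that fit several lines had been divided among them, and their values carry that uncertainty.

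The miR-17 family showed the largest downward shift of any seed family other than miR-146. This family, known for promoting cell cycle entry and cell survival, summed to 3588 (WT A), 4111 (WT B) and 2750 RPM (3′F), a shift of -0.48 against 0.20 for WT B minus WT A. The 3′F sum was below both WT sums, 0.38 under the nearer on the log2 scale. Of its 4 expressed members 3 were called below WT, where 8.37% of all miRNAs were.

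miR-17-5p was at 888 (WT A), 1030.2 (WT B) and 640.4 RPM (3′F) (interval 628 to 653), a shift of -0.58. miR-20a-5p, its neighbour in the same transcript, was at 1227, 1382 and 929 RPM, a shift of -0.49. miR-93-5p, which comes from another chromosome, was at 1363, 1607 and 1087 RPM, a shift of -0.45. In all 3 the 3′F value was lower than both WT values, past the threshold only narrowly for miR-93-5p, whose call was also lost when RPM was taken over 1 line per miRNA. The fourth member, miR-106b-5p, was at 106.3 (WT A), 85.7 (WT B) and 90.5 RPM (3′F), between the WT values.

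The host locus of miR-17-5p and miR-20a-5p, the miR-17-92 cluster, lies in an exon of the lincRNA Mir17hg at chr14:115043671-115044506 on the plus strand (GRCm38, GENCODE vM21). It holds hairpins of the miR-17, miR-18, miR-19 and miR-92 groups. It was the 1 cluster of 22 called outside WT (4.55%). The 6 products that come from this cluster alone summed to 2211 (WT A), 2514 (WT B) and 1640 RPM (3′F), a shift of -0.52. All 6 were below both WT libraries, which 44.2% of all miRNAs were. This shift stayed between -0.62 and -0.43 under the other scalings, the other pseudocount and without either WT library.

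Among these products, miR-18a-5p was at 34.2 (WT A), 28.3 (WT B) and 19.5 RPM (3′F), a shift of -0.65. miR-19a-3p was at 32.1, 36.1 and 24.9 RPM, a shift of -0.44. The passenger strands were less clear. miR-18a-3p was at 10.9, 18.5 and 9.51 RPM, close to WT A, and miR-17-3p at 19.2, 18.3 and 16.9 RPM, with a shift of -0.14. The remaining products are also made elsewhere and were not summed. Of these miR-19b-3p, at 62.9, 63.3 and 54.5 RPM, was below both WT libraries and miR-92a-3p, at 3874, 5697 and 3901 RPM, lay just above WT A. The miR-19 family as a whole summed to 95.01, 99.4 and 79.4 RPM, a shift of -0.29, short of the threshold.

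The miR-106b-25 cluster, in the DNA helicase subunit gene Mcm7 at chr5:138165321-138165818 on the minus strand, is the paralogue of the miR-17-92 cluster. Its products summed to 7355 (WT A), 9439 (WT B) and 7164 RPM (3′F). The 3′F sum was only 0.04 below WT A on the log2 scale, while WT B exceeded WT A by 0.36. miR-25-3p, the main product, was at 5075, 6849 and 5143 RPM and between the WT values, as was miR-106b-3p at 778, 859.7 and 818 RPM. The products called below WT were miR-93-5p and the passenger strand miR-25-5p, at 20.3, 22.9 and 14.6 RPM. Within this cluster 3 of 6 products were below both WT libraries, close to the 44.2% of all miRNAs, and the difference in the sum was smaller than that between the WT libraries.

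The miR-7 family was lower by less, with WT libraries that lay closer together. miR-7a-5p, known as a brake on growth factor signalling, was at 8585 (WT A), 8106 (WT B) and 6446 RPM (3′F), a shift of -0.37 against -0.08 between the WT libraries. miR-7b-5p, which differs from it after the seed and shares reads with it, was at 33.2, 31.3 and 24.2 RPM, a shift of -0.40. The family sum was 8618, 8137 and 6470 RPM. It was 0.33 below the nearer WT library on deposited RPM, past the threshold, but only 0.18 below with TMM factors and 0.21 with DESeq2's size factors, so the call rests on the scaling while the direction does not. miR-7a is made from hairpins on chromosomes 13, in an intron of Hnrnpk, and 7, and the mature strand does not tell them apart.

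The miR-10 family moved most in the other direction. miR-10a-5p, whose gene lies in the Hoxb cluster and which is a regulator of inflammatory signalling in other cell types, was at 3888 (WT A), 4080.2 (WT B) and 5402 RPM (3′F) (interval 5366 to 5438). The shift was 0.44, or 1.36-fold, against 0.07 between the WT libraries, and 0.42 to 0.52 under the other scalings for the family sum. Its passenger strand miR-10a-3p, from the same hairpin at chr11:96317165-96317274 on the plus strand, was at 12.2, 13.1 and 16.7 RPM, a shift of 0.38. miR-10b-5p, which has a hairpin of its own in Hoxd3 and Hoxd4 introns, was at 9.40, 10.4 and 11.6 RPM and above both WT libraries, short of the threshold. With the miR-146, miR-17 and miR-7 families, miR-10 was 1 of 4 families called outside WT of 26 (15.4%). The miR-146 sum holds miR-146a-5p and miR-146b-5p but not the swapped strand, which keeps the seed. Its fall is therefore no measure of the whole seed family.

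**Figure D2:**
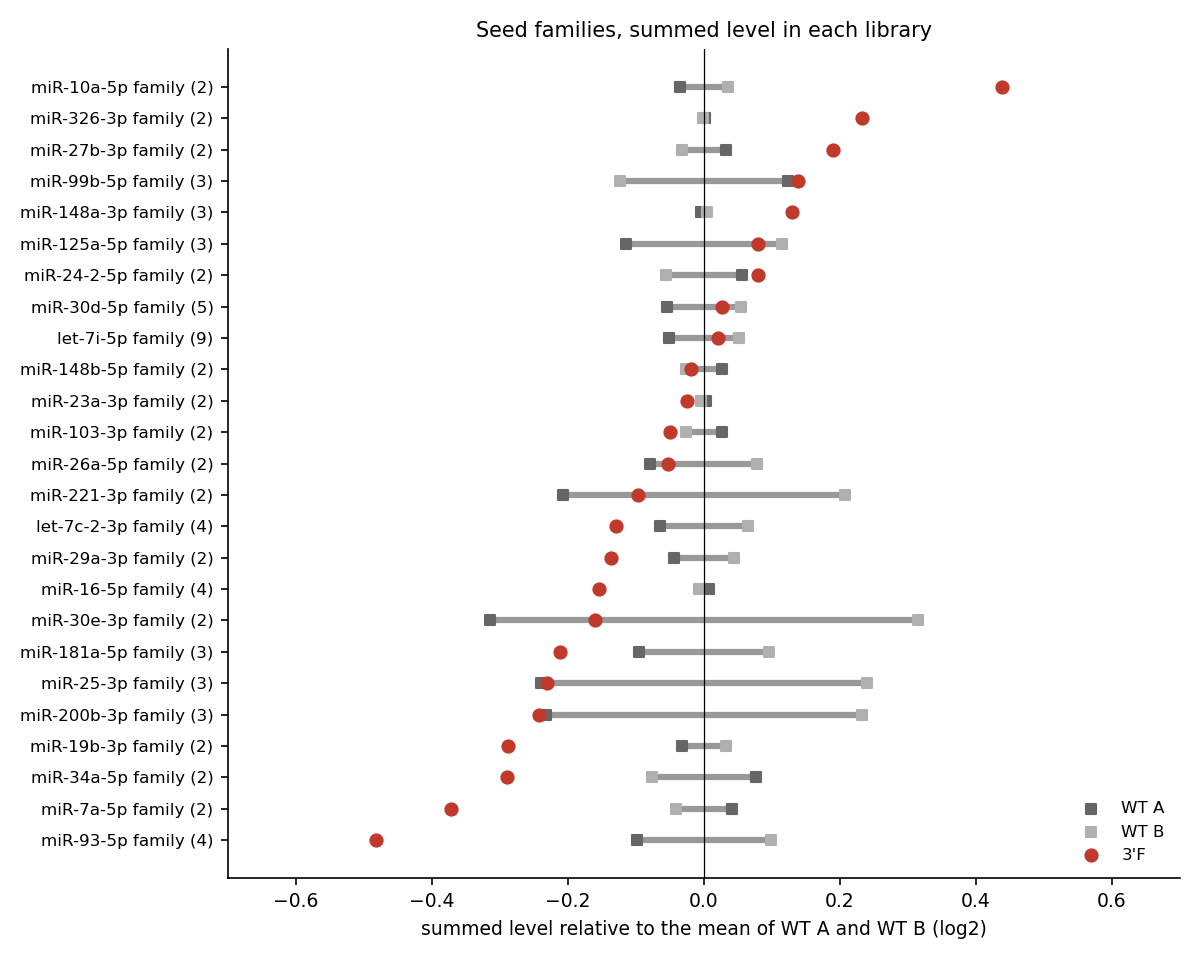
Summed level of each of 25 seed families with at least 2 expressed members (number in parentheses) relative to the WT mean, on a log2 scale. Squares joined by a bar are WT A and WT B and red circles are 3′F, with the miR-146 family left out at -2.23, a sum without the swapped strand. The miR-10 and miR-17 (named for miR-93-5p) families stand farthest from the WT bars.

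The other families that stood above both WT libraries did so by smaller amounts. The miR-27 family, which represses lipid metabolism genes, summed to 109566 (WT A), 104844 (WT B) and 122315 RPM (3′F), a shift of 0.19. miR-27b-3p, the second most abundant miRNA of the 3′F library, accounted for most of it, at 104019, 99197 and 116117 RPM, and miR-27a-3p was at 5547, 5647 and 6198 RPM. Their sequences share a run of 18 bases and both have fractional counts. The miR-148 and miR-152 family summed to 10115, 10179 and 11100 RPM, a shift of 0.13, with all 3 members above both WT libraries, where 22.7% of all miRNAs were, led by miR-148a-3p at 4712, 4816 and 5321 RPM. The pair miR-326-3p and miR-330-5p, from different chromosomes but with 1 seed, summed to 245, 244 and 288 RPM, a shift of 0.23. Only miR-326-3p, at 178, 165 and 218 RPM, was above both WT libraries, since miR-330-5p was at 67.0, 79.5 and 69.3 RPM.

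Of the 26 families 6 were above both WT libraries, 12 below and 8 between on deposited RPM. The lean to lower values was absent with TMM factors, with 10 above, 10 below and 6 between. With DESeq2's size factors these were 9, 9 and 8, and both methods centre the differences. RPM over 1 line per miRNA kept the lean (6, 12 and 8), as did RPM taken without miR-21a-5p (4, 12 and 10). The let-7 family, with 9 expressed members the largest, and without let-7j, for which no RefSeq sequence was matched, summed to 170613 (WT A), 183304 (WT B) and 179345 RPM (3′F) and lay between them. So did the miR-30 and miR-26 families and the miR-221 and miR-222 pair. With TMM or DESeq2 factors the let-7, miR-30 and miR-125 sums were above both WT libraries, by 0.08 to 0.11 on the log2 scale, and with TMM factors so was miR-26, by 0.01. The miR-34 family, whose members are induced by p53, was at 366, 329 and 284 RPM, a shift of -0.29. All 4 expressed members of the miR-15 and miR-16 family, known to restrain the cell cycle, were below both WT libraries, which 44.2% of all miRNAs were, with a sum of 1196, 1184 and 1070 RPM and a shift of -0.15 that shrank to -0.08 with TMM factors. The miR-181 family was at 499, 570 and 460.4 RPM, a shift of -0.21. The miR-25, miR-92 and miR-32 family, at 9047, 12616 and 9099 RPM, lay just above WT A. The miR-29 family, antifibrotic in many tissues, was at 1338, 1422 and 1254 RPM, and miR-130b-3p, the expressed member of the miR-130 and miR-301 family, at 20.9, 22.0 and 18.4 RPM, both below both WT libraries. The miR-103 and miR-107 pair was at 3874, 3734 and 3673 RPM and the miR-23 pair at 15741, 15659 and 15424 RPM, directions that turned relative to the WT mean with TMM or DESeq2 factors. The miR-99 and miR-100 family was at 20271, 17067 and 20481 RPM and the miR-125 family at 2622, 3076 and 3000.3 RPM. miR-128-3p, at 901, 1193 and 1017 RPM, lay between the WT values. None of these family sums passed the threshold.

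The cluster of miR-99b, let-7e and miR-125a stood out by the common direction of its products. Its 3 hairpins lie within an intron of Spaca6, a gene of sperm and egg fusion, at chr17:17830188-17830879 on the plus strand. All 6 of its expressed products were above both WT libraries, where 22.7% of all miRNAs were, and they belong to 3 families by their guide strands. The sum was 15176 (WT A), 13359 (WT B) and 16637 RPM (3′F), a shift of 0.22 and 0.13 above the nearer WT library, short of the threshold.

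let-7e-5p was at 1945 (WT A), 1891 (WT B) and 2362 RPM (3′F), a shift of 0.30. miR-125a-5p, a miRNA linked to macrophage activation state, was at 1409, 1578 and 1740 RPM, a shift of 0.22. miR-99b-5p, the most abundant product, was at 11142, 9185 and 11757 RPM, and its shift of 0.22 was smaller in size than the difference of -0.28 between the WT libraries. The passenger strands let-7e-3p, at 22.1, 22.4 and 29.1 RPM, and miR-125a-3p, at 41.4, 42.1 and 51.7 RPM, had shifts of 0.37 and 0.30. miR-99b-3p was at 617, 641 and 697 RPM. Of the 6, let-7e-3p was the only one called above WT on deposited RPM. Of all miRNAs 22.7% were above both WT libraries and 44.2% below both. Of the 9 expressed members of the let-7 family with a RefSeq sequence, 3 were above both WT libraries on deposited RPM, 2 below and 4 between, and let-7j, at 2956, 3012 and 2728 RPM, was also below. Besides let-7e-5p, those above were let-7g-5p, at 32043, 33357 and 35771 RPM with a shift of 0.13, and let-7f-5p, at 40809, 44285 and 44943 RPM with a shift of 0.08. let-7i-5p, at 74790, 76588 and 73049 RPM, was below both WT libraries on deposited RPM and above their mean with TMM or DESeq2 factors.

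**Figure D3:**
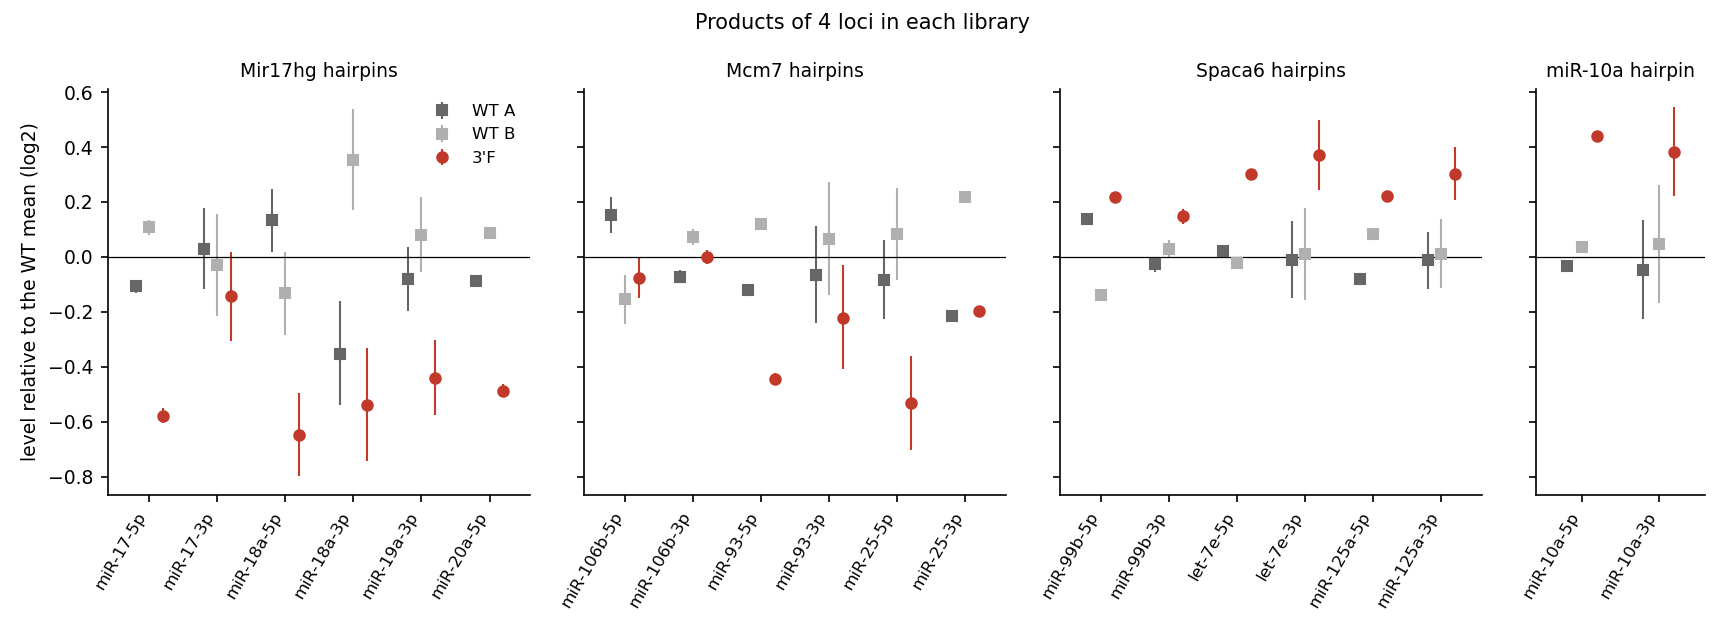
Level of each expressed single-locus product of the Mir17hg, Mcm7 and Spaca6 hairpins and of the miR-10a hairpin in WT A, WT B (squares) and 3′F (red circles), as log2(RPM + 1) relative to the WT mean, with Wilson intervals (95%) as bars. The Mir17hg products miR-19b-3p and miR-92a-3p, also made elsewhere, are not shown. In 3′F all 6 single-locus products of Mir17hg were below both WT libraries and all 6 of Spaca6 above both, while those of Mcm7 were mixed.

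Among the 22 clusters with at least 2 hairpins giving expressed products, 6 were above both WT libraries, 7 below and 9 between. The cluster of miR-182 and miR-183, miRNAs best known from sensory cells and T cells, lies at chr6:30165918-30169737 on the minus strand. It had a sum of 682 (WT A), 725 (WT B) and 831 RPM (3′F), a shift of 0.24. miR-183-5p, at 289, 330.5 and 385 RPM, and miR-182-5p, at 393, 395 and 446 RPM, were both above both WT libraries. The cluster of miR-23b, miR-27b and miR-24-1 at chr13:63300484-63301275 had a shift of 0.18, carried by miR-27b-3p. Its other main guide went the other way by a little, with miR-23b-3p at 6796, 6837 and 6517 RPM, although above the WT mean with TMM or DESeq2 factors. The cluster of miR-212 and miR-132 at chr11:75173388-75173747, which responds to CREB, was at 54.7, 58.3 and 61.4 RPM.

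The clusters next farthest below both WT libraries, after the miR-17-92 cluster, were 3 pairs. let-7f-2 and miR-98, in the ubiquitin ligase gene Huwe1 at chrX:151912346-151913321, summed to 1520 (WT A), 1598 (WT B) and 1310.3 RPM (3′F), a shift of -0.25, with miR-98-5p at 1507, 1585 and 1302 RPM. miR-15b and miR-16-2, in the condensin gene Smc4 at chr3:69009772-69009996, summed to 594, 654.5 and 518 RPM, a shift of -0.27, and all 3 products were below both WT libraries, where 44.2% of all miRNAs were. miR-15b-5p was at 434, 465 and 388 RPM and miR-15b-3p at 147, 177 and 122 RPM. miR-30c-1 and miR-30e, in the transcription factor gene Nfyc at chr4:120769534-120772697, summed to 1941, 2507 and 1781 RPM. There miR-30e-5p was at 1031, 1101 and 778 RPM, a shift of -0.45, and miR-30e-3p at 889, 1390 and 983 RPM, between the WT values. The log2 ratio of these arms was 0.21 (WT A), -0.34 (WT B) and -0.34 (3′F), so that the ratio in 3′F was that of WT B.

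**Figure D4:**
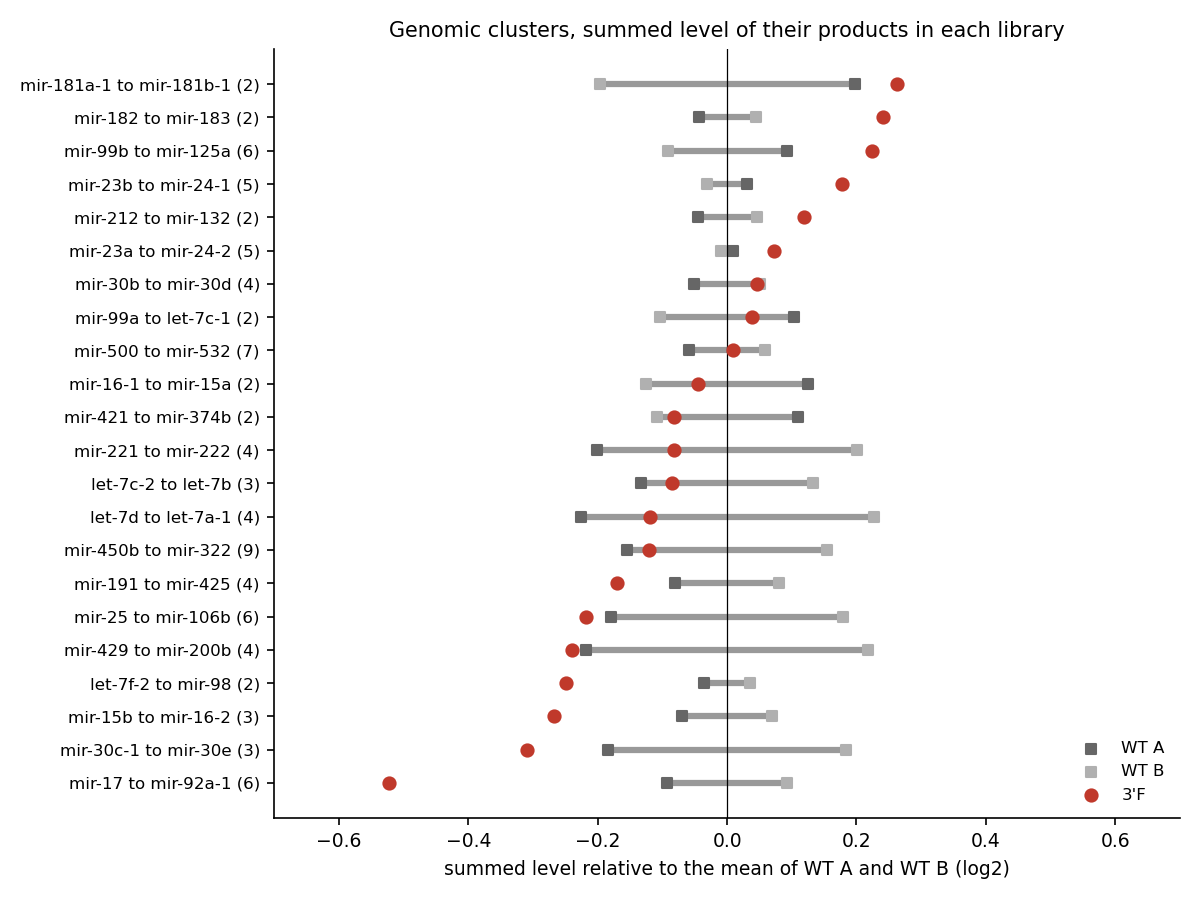
Summed level of the products made by a single cluster (number of products in parentheses) for 22 genomic clusters, relative to the WT mean, on a log2 scale. Squares joined by a bar are WT A and WT B and red circles are 3′F. The miR-17-92 cluster lies farthest below, at -0.52, and in 9 clusters the 3′F circle lies within the WT bar.

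Outside these families and clusters, single miRNAs made up the ends of the distribution. The 2 farthest above WT were low: miR-7043-3p, from an intron of Rassf4, at 7.73 (WT A), 7.71 (WT B) and 12.4 RPM (3′F), and miR-298-5p, from the imprinted Nespas and Gnas region of chromosome 2, at 9.61, 9.29 and 14.6 RPM. Their shifts of 0.62 and 0.58 rest on 201 and 236 counts in 3′F. Both were under 10 RPM in each WT library and passed the expression minimum only through 3′F and KO (13.6 and 41.8 RPM in KO). Their place among the expressed miRNAs thus depends on the libraries where they were high. miR-222-5p, the minor arm of an abundant hairpin on the X chromosome, was at 345, 381 and 524 RPM (interval 513 to 535), a shift of 0.53. The near-identical miR-1843a-5p and miR-1843b-5p, which share a run of 20 bases and have fractional counts, were at 96.9, 99.1 and 123.5 RPM and at 37.8, 33.3 and 46.3 RPM. Both were above both WT libraries but not called on deposited RPM.

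At the other end, miR-451a had a shift of -1.45 and the miR-486 lines -0.94 and -0.91, described with the cell type markers. miR-362-5p, from the Clcn5 intron cluster on the X chromosome, was at 244 (WT A), 261.5 (WT B) and 169 RPM (3′F), a shift of -0.58. The sum of its cluster, most of it miR-532-5p at 4103, 4085 and 4391 RPM, had a shift of 0.01. Of the 7 products 4 were below both WT libraries, 1 above and 2 between, where 44.2% of all miRNAs were below both and 22.7% above both. miR-362-3p of the same hairpin was at 81.5, 67.8 and 61.1 RPM, a shift of -0.28. Several other calls were passenger strands. miR-26a-2-3p was at 49.3, 49.3 and 34.5 RPM, miR-16-2-3p at 12.7, 12.5 and 7.84 RPM, let-7f-2-3p at 12.5, 12.5 and 8.79 RPM and miR-450b-3p at 12.5, 10.9 and 7.53 RPM. The last 3 of these and miR-451a were under 10 RPM in 3′F. They passed the expression minimum only through libraries where they were higher, so their place among the calls depends on those libraries. The other calls below WT, outside the rule for naming and given for completeness, were miR-32-5p (95.4, 67.1 and 51.9 RPM), miR-29b-3p (40.1, 31.7 and 24.6 RPM) and miR-874-3p (18.5, 19.9 and 13.5 RPM). For miR-32-5p and miR-29b-3p, as for miR-451a, the WT libraries themselves differed by more than the threshold.

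Both arms of a hairpin are cut from the same molecule, and the ratio of their levels does not depend on library scaling. Some mature strands, such as miR-16-5p, let-7f-5p and miR-24-3p, are made by several hairpins. Their ratios set a strand of a single hairpin against a shared strand, which enters more than once. The 80 ratios are thus not all independent, nor all of arms from the same molecule. Over 80 hairpins with both arms expressed, the log2 ratio of 5p to 3p shifted by a median of -0.05 with an SD of 0.247 across hairpins, against an SD of 0.310 for WT B minus WT A. The shift passed the threshold in 17 hairpins and the difference between the WT libraries in 23. These are not like for like, since a mean of 2 libraries varies less than 1 library. The ratio in 3′F was above both WT ratios in 24 hairpins, below both in 29 and between them in 27. The 2 arms shifted in the same direction in 43 hairpins and in opposite directions in 37.

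The largest arm shift was that of miR-222, whose log2 ratio of 5p to 3p was -5.40 (WT A), -5.88 (WT B) and -5.01 (3′F), a shift of 0.63. Here miR-222-3p, at 14620, 22439 and 16886 RPM, lay between the WT values, so the ratio followed miR-222-5p. Next came let-7f-2, miR-16-2 and miR-26a-2 with 0.54, 0.51 and 0.49. In these the passenger strand was lower while the 5p guide, which is also made by other hairpins, was within 0.11 of WT. For let-7f-2 and miR-16-2 the passenger strand was under 10 RPM in 3′F and counted as expressed only through other libraries. In the other direction miR-1981 shifted by -0.51, miR-17 by -0.43 and miR-140 by -0.43. For miR-17 the guide had a shift of -0.58 and the passenger one of -0.14.

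**Figure D5:**
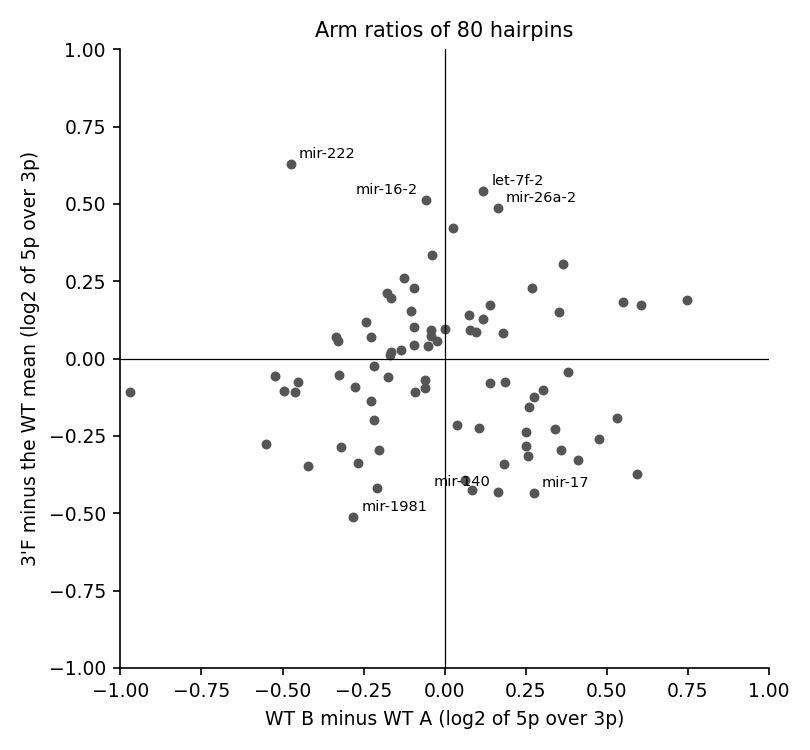
Change of the log2 ratio of 5p to 3p arm in 3′F against the WT mean (vertical axis) and difference of that ratio between WT B and WT A (horizontal axis) for 80 hairpins, with the 7 named in the text labelled. The SD across hairpins is 0.247 vertically, for 1 library against the mean of 2, and 0.310 horizontally, for 1 library against 1.

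miRNAs that mark cell types were summed to see which cells the libraries held. The myeloid list (miR-223, miR-142a and miR-511, 5 of 6 expressed) summed to 4193 (WT A), 3494 (WT B) and 3433 RPM (3′F), with a median shift of -0.06 beside -0.08 for all expressed miRNAs. Of these 5 members 0 were called, where 2.39% of all miRNAs were called above and 8.37% below WT. miR-223-3p, a marker of granulocytes and macrophages, was at 1574, 1466 and 1503 RPM. It was the most abundant member in WT B and 3′F. miR-142a-3p, the most abundant in WT A, was at 1721, 1121 and 1071 RPM. The myeloid markers were thus present in each library, and in 3′F at most 0.07 outside WT on the log2 scale among expressed members.

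In the erythroid list every expressed member was called. miR-451a, the Dicer-independent miRNA of red cell precursors, was at 18.7 (WT A), 30.0 (WT B) and 8.03 RPM (3′F), and both WT values were above that in 3′F. It was at 4.09 RPM in KO, so it passed the expression minimum of 10 RPM only through WT. miR-486a-5p was at 74.1, 63.5 and 35.2 RPM and miR-486b-5p, a line that shares its reads, at 76.6, 64.5 and 37.0 RPM. All 3 expressed members of 5 were called below WT, where 8.37% of all miRNAs were, and the list summed to 171, 160 and 80.7 RPM with miR-486b-5p the highest in 3′F. The other members, miR-144-3p and miR-144-5p from the hairpin beside miR-451a, had 2 and 7 counts in 3′F, and none was at 0. Beside the lower values of the miR-17 family and of miR-16-2-3p stands this lower erythroid sum, and its part in them was not tested.

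Other marker lists were low. The lymphocyte pair miR-150-5p and miR-150-3p summed to 2.99, 2.80 and 1.54 RPM, with miR-150-3p at 0 in WT B and 3′F. The endothelial pair of miR-126a arms was at 11.1, 10.2 and 11.1 RPM. The stromal list of 7 was at 13.8, 14.7 and 10.7 RPM, led in 3′F by miR-199a-3p and miR-199b-3p at 3.21 RPM. miR-143-3p, the highest member in WT, was at 4.74, 4.91 and 2.22 RPM (81, 56 and 36 counts). miR-145a-5p was at 0 in 3′F and at 3 and 2 counts in WT. The muscle list summed to 0.53, 0.74 and 0.80 RPM, with miR-133a-3p at 0 in all 3 libraries, and the hepatocyte marker miR-122-5p to 1.23, 1.84 and 1.11 RPM. The epithelial list was higher, at 620.0 (WT A), 843 (WT B) and 610.5 RPM (3′F), mainly miR-200b-3p at 512, 707 and 510.1 RPM. Its 4 expressed members of 6 were below both WT libraries, which 44.2% of all miRNAs were, and 0 of them were called. For miR-200b-3p, miR-200c-3p and miR-429-3p the 3′F value was at most 0.07 under WT A on the log2 scale. miR-205-5p had 3, 0 and 1 counts.

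The miRNAs listed as responsive to NF-kB, the pathway that miR-146a restrains, had 0 called members among 6 expressed of 10, where 2.39% of all miRNAs were called above and 8.37% below WT. The median shift was -0.10 beside -0.08 for all expressed miRNAs. miR-155-5p, induced in activated macrophages, was at 71.3 (WT A), 70.3 (WT B) and 62.7 RPM (3′F), a shift of -0.17. miR-21a-5p, at 379027, 341385 and 354381 RPM, lay between the WT values and miR-132-3p, at 29.7, 30.2 and 32.4 RPM, slightly above them. miR-21a-3p was at 39.5, 27.3 and 26.0 RPM, just under WT B. The remaining expressed members, miR-221-3p at 27407, 33586 and 28499 RPM and miR-222-3p, lay between the WT values. miR-155-3p, miR-212-3p, miR-147-3p and miR-9-5p did not reach the expression minimum.

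KO is compared with the same WT libraries, so its values are given only side by side. The miR-17 family summed to 3155 RPM in KO, a shift of -0.28 where 3′F had -0.48, and the miR-7 family to 6154 RPM, with -0.44 in KO and -0.37 in 3′F. miR-10a-5p was at 4700 RPM in KO, a shift of 0.24 beside 0.44. The erythroid list summed to 70.5 RPM in KO and 80.7 in 3′F. For the Spaca6 products let-7e-5p, miR-125a-5p and miR-99b-5p the shifts in KO were 0.58, 0.67 and 0.51, and in 3′F 0.30, 0.22 and 0.22. miR-222-5p, by contrast, was at 362 RPM in KO, between the WT values, and at 524 in 3′F. No difference between KO and 3′F was tested, with 1 library each.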

How the data were processed

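Small RNA was sequenced from resting BMDMs in 4 libraries (WT A, WT B, KO and 3′F). The submitters' processing notes name cutadapt 1.8.3 for trimming. The aligner, counter, genome build and miRNA release are not given in the sources used here. The authors deposited estimated counts, in which reads fitting several miRNAs were shared out as fractions, and RPM values, each count divided by the library's sum over 2129 lines. A mature miRNA with several precursors is counted several times in that sum. Ligation efficiency differs between sequences, so levels of different miRNAs are not strictly comparable.

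For each mature miRNA the line with the highest count over the 4 libraries was used, and log2(RPM + 1) was taken (Python 3.11.15, numpy 2.4.6, pandas 2.3.3, matplotlib 3.10.9). Shifts, the threshold of 0.32 log2 and Wilson intervals are as defined with the results, and the functions were tested on simulated data. Families were formed from bases 2 to 8 of RefSeq mature sequences (228 of 251 expressed miRNAs had one, and 5 were placed by a hand-written list). Clusters were formed from hairpins within 10 kb on a strand in the GENCODE vM21 annotation (1172 of 1235 precursors placed). Products of more than 1 cluster were left out of sums. Named are, in each direction, the 10 miRNAs, 4 families and 4 clusters farthest beyond the nearer WT library, the lists and the 5 most abundant miRNAs. Values of other members of these loci and arms are also given. The members, the lists and this rule were chosen with earlier results of these data known. TMM and size factors came from edgeR 4.0.16 and DESeq2 1.42.0 (R 4.3.3) on counts rounded for DESeq2. No test was made, because 3′F has 1 library.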

Additional observations from a re-analysis of the deposited data

How the results depend on the processing

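The number of miRNAs called outside WT, 27, was 58 with an expression minimum of 1 RPM, 9 with 100 RPM, 6 at 1.5-fold and 2 at 2-fold, and from 47 to 70 when either WT library was left out, since 1 library is then easier to clear. The median shift of -0.08 became -0.0019 with TMM factors and -0.0089 with DESeq2's size factors, which centre the differences. It ranged from -0.126 to -0.016 without either WT library. The mean distance of 3′F from the WT libraries, 0.297, was 0.333 at a minimum of 1 RPM and 0.241 at 100 RPM. Of 26 seed families 4 were called, 3 with TMM factors, with DESeq2's size factors or with RPM taken without miR-21a-5p (miR-7 being lost), and 5 to 7 without either WT library. Of 22 clusters 1 was called, and 1 to 7 without either WT library. Under the 7 alternatives that recompute the shift (4 scalings, the pseudocount and each WT library left out) no named miRNA that was called, and none of the 4 called families or the called cluster, changed sign. This was largely fixed beforehand, since a call lies beyond both WT libraries and a scaling moves all miRNAs alike. Of all sums, 10 of 26 families and 9 of 22 clusters, none of them called on deposited RPM, changed sign in at least 1 alternative. No paired analysis was possible because 3′F has 1 library. The deposited labels of 3′F and KO carry the letter A, as that of WT A does, which the paper gives as a culture replicate identifier. Whether cultures of the same letter were grown together is not stated. Against WT A alone the median shift was -0.016. Limits are the single 3′F culture, the shared reads of near-identical lines, and depth, by which miRNAs near 10 RPM rest on as few as 122 counts in 3′F.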
